A study of Mus musculus with 2 samples.

Results

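The cathepsins described here are 10 genes for proteases of the endosome and lysosome, Ctse, Ctsk, Ctss, Ctsb, Ctsd, Ctsl, Ctsh, Ctsz, Ctsc and Ctsa, chosen by their symbols among 37315 gene identifiers. All 10 were found once. They were measured by RNA sequencing of polyadenylated RNA from lung of the inbred mouse strain C57BL/6, in 1 control library and 1 library from mice exposed to PM2.5, the fine fraction of airborne particulate matter. A 12W in each sample title is left unexplained by the labels, which also give no age, sex, dose, route of exposure or number of animals. The libraries held 62788045 (control) and 57435027 (PM2.5) counts, and the alveolar type 2 cell gene Sftpc, a defining transcript of lung, had 837001 and 1159636 of them. With 1 library per group there is no replicate check and no test: a ratio is PM2.5 over control, with an exact 95% interval that covers counting error only, and it describes these libraries, not the exposure.

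Cathepsins are made as inactive precursors, carried to acid compartments by mannose 6-phosphate receptors or sortilin, and activated there by removal of a propeptide. Most are cysteine proteases (Ctsb, Ctsc, Ctsh, Ctsk, Ctsl, Ctss and Ctsz), Ctsd and Ctse are aspartic proteases, and Ctsa is a serine carboxypeptidase. In lung they are best known from macrophages, which clear particles and digest them in lysosomes, and from alveolar type 2 cells, where they process surfactant proteins. Cystatins and related proteins inhibit the cysteine cathepsins, and TFEB and TFE3 are transcription factors of lysosomal genes that bind sequences with a CACGTG core.

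Sequence just before the RefSeq start site was at hand for 7 of the 10 genes, in 8 windows of 250 bases (RefSeq, GRCm38.p6, the assembly called mm10); Ctse, Ctsb and Ctsh had no entry. The core CACGTG, which reads the same on both strands, was found in 3 of the 8 windows, those of Ctsd, Ctsl and an alternative start of Ctsa, and in 6.02% of 32851 windows of all genes. The stretches of 30 bases around each match are shown so that the shared core, in capitals, can be compared with its flanks, all 5′ to 3′ on the strand of the gene.
Ctsa (chr2:164833743-164833772, plus strand): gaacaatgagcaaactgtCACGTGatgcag
Ctsd (chr7:142388048-142388077, minus strand): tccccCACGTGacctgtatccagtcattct
Ctsd (chr7:142387908-142387937, minus strand): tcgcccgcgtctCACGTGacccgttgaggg
Ctsl (chr13:64370739-64370768, minus strand): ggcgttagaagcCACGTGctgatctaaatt
In GENCODE M21, the first Ctsd stretch lies before the gene, the second Ctsd stretch and that of Ctsa lie within annotated exons of these genes, and that of Ctsl lies across an exon edge. The windows of Ctsl, wholly, and Ctsd, for the most part, lie inside the longer GENCODE spans of these genes, downstream of their outermost start. A match is a description of letters and not evidence of binding.

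Ctsk and Ctss are neighbours on chromosome 3, on the plus strand with 17424 bases between them, and their upstream windows are shown because the genes sit side by side and differ in level. GAGGAA on either strand (TTCCTC when read on the gene's strand), a string common in sites of the myeloid factor PU.1, is in capitals. It was found in 3 of the 8 windows, those of Ctsk, Ctss and Ctsc, and in 23.3% of all.
Ctsk (chr3:95498960-95499209, plus strand): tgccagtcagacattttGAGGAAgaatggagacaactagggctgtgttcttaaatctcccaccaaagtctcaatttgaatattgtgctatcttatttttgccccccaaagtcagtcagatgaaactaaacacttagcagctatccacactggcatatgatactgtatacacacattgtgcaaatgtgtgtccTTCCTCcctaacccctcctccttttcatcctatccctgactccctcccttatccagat
Ctss (chr3:95526536-95526785, plus strand): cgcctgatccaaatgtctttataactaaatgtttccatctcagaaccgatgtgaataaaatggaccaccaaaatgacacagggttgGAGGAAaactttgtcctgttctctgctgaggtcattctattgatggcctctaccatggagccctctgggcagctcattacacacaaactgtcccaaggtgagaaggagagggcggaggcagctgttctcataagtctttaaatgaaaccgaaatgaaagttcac
The window of Ctsk holds 43.2% G or C and no CG pair, that of Ctss 44.8% and 4 CG pairs, and that of Ctsd 67.2% and 27. The median over all windows was 52.4% G or C. TGANTCA, the AP-1 string, was in none of the 8 windows and in 6.75% of all.

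One cathepsin differed widely between the libraries and the other 9 differed little. Ctse, for the aspartic protease cathepsin E, had 2215 counts in control lung and 214 with PM2.5. Ctsl was the next lowest, with a ratio of 0.716, and the remaining 8 ratios lay between 0.814 and 0.946 with library sizes scaled by TMM, which centres most genes near a ratio of 1. Counted as at least 1.5-fold apart with an interval that leaves out 1, none of the 10 genes was higher and 1 was lower. Over the 14518 genes averaging at least 1 CPM (counts per 1000000 of scaled library size), 14.9% were higher and 19.1% were lower by the same rule, and with library totals 23.8% and 9.9%. All 10 cathepsins had more than 1 CPM in both libraries, so none entered through 1 library alone. The genes were proposed with this contrast known, so these counts and ratios are a description.

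**Figure D1:**
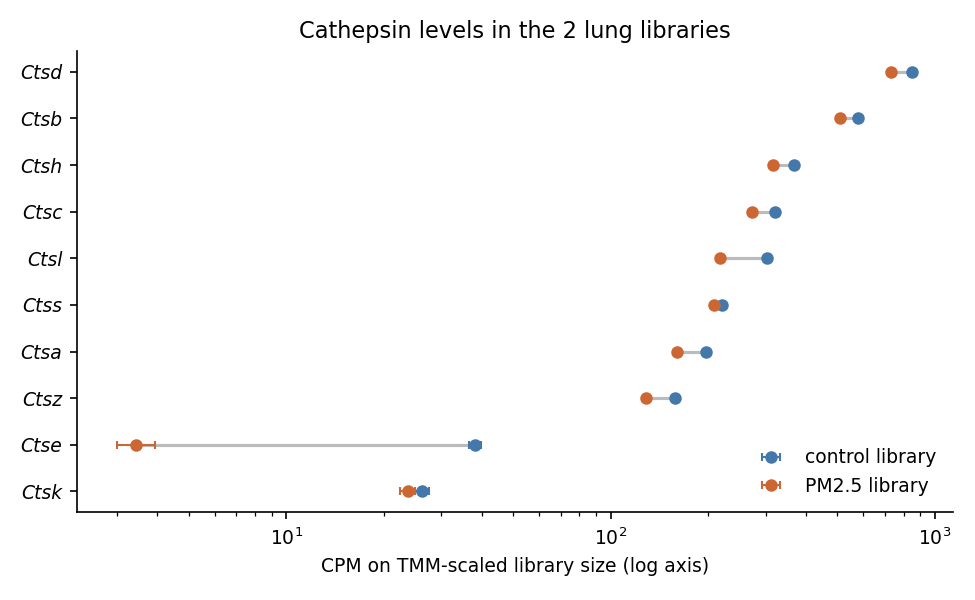
CPM on the TMM-scaled library size (log axis) of each cathepsin in the control and the PM2.5 library, with exact 95% counting intervals, most of them narrower than the points. Ctse is the one gene whose points lie far apart, at 38.2 and 3.44 CPM, and every other pair lies close together.

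The median log2 ratio of the 10 genes was -0.23, beside -0.09 over all 14518 genes and -0.19 over the 10421 genes averaging 10 CPM or more, the level at which all cathepsins lie. Of the 10 ratios, 8 fell inside the middle 50% of all genes, whose log2 ratios run from -0.48 to 0.33. The other 2 were Ctse and Ctsl, and Ctsl lay just outside. All 10 counting intervals lay below 1, but so narrow an interval is common at this depth: 83.0% of all tested genes had one that left out 1. The side of 1 on which 5 of the ratios fall depends on the scaling. With library totals, which move the median of all genes from -0.09 to 0.14, 5 of the 10 ratios were above 1 and the median of the 10 was 0.00. With the upper quartile, which moves it to 0.05, only Ctss was above 1. Ctsl, Ctsz, Ctsa and Ctsc stayed below 1 in each setting, Ctsc only just, at 0.9996 with library totals. Since a change of scaling moves all ratios together, no direction is stated for the 9 genes other than Ctse. They are compared below by their shares, which need no library scaling.

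Within each library the counts of the 10 genes were divided among them in much the same way. They numbered 176977 in the control library, 0.282% of all its counts, and 159857 in the PM2.5 library, 0.278%. Ctsd took the largest share, 27.8% and 28.4%, followed by Ctsb with 18.9% and 19.9%. The share of Ctss moved from 7.23% (exact binomial interval 7.11 to 7.35) to 8.12% (7.99 to 8.26), and that of Ctsl from 9.91% (9.77 to 10.05) to 8.42% (8.29 to 8.56). Ctse held 1.25% (1.20 to 1.30) of the control counts and 0.134% (0.117 to 0.153) of the PM2.5 counts. Set against the sum of the other 9, Ctse had a ratio of 0.106 (95% counting interval 0.0919 to 0.122), Ctsl 0.837 (0.817 to 0.856) and Ctss 1.13 (1.11 to 1.16). In all, 4 genes lay above the sum of the rest by this measure, 4 lay below it, and the intervals of Ctsk and Ctsc included 1. Ctse apart, each of these ratios lay between the 0.837 of Ctsl and the 1.13 of Ctss. The contrast of these 2 genes turns when the trend of the ratio over length, taken as all annotated exons joined, is removed. Ctss then had a ratio of 0.746 and Ctsl 0.785, beside 0.946 and 0.716 with TMM alone. The joined exons of Ctsl span 6489 bases and its longest well supported transcript 1971, against 1358 and 1355 for Ctss. A trend over transcript length was not fitted, so the turn may rest on the length used.

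**Figure D2:**
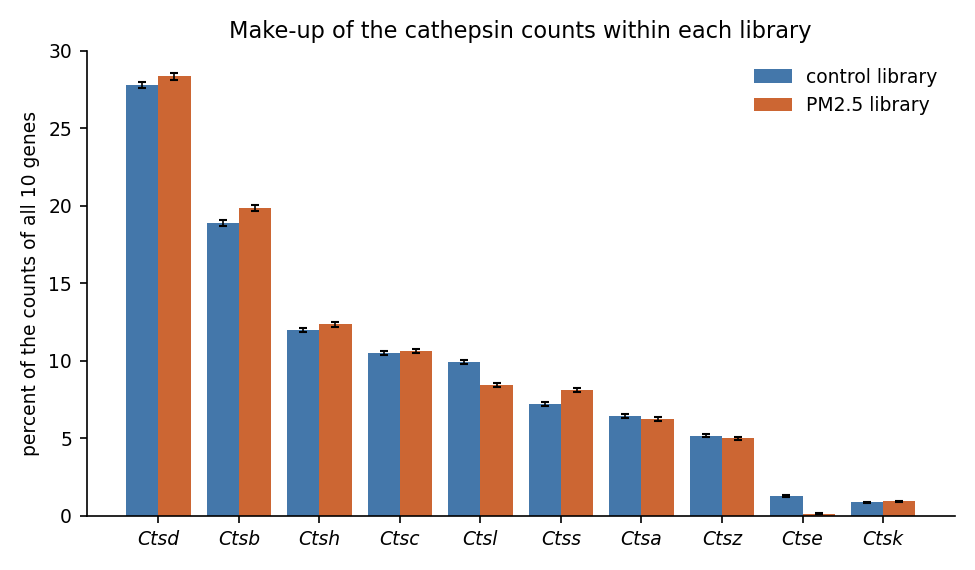
Percent of the summed counts of the 10 cathepsins taken by each gene in the control and the PM2.5 library, with exact 95% binomial intervals. The paired bars are of like height for 9 genes, and the bar of Ctse shrinks from 1.25% to 0.134%.

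Compared per length, as CPM per kilobase of the longest well supported transcript, the levels ran in nearly the same order in both libraries. In the control library Ctsd was highest at 399, followed by Ctsh at 226, Ctss at 163, Ctsl at 153, Ctsc at 128, Ctsb at 122, Ctsz at 109, Ctsa at 77.4, Ctse at 18.0 and Ctsk at 17.3 CPM per kilobase. Only Ctse and Ctsk, at the bottom, had overlapping counting intervals. In the PM2.5 library the top 8 stood in the same order, from 343 for Ctsd to 63.2 for Ctsa, and below them Ctsk at 15.6 now stood above Ctse at 1.62 CPM per kilobase. There Ctsl, Ctsc and Ctsb, at 110, 109 and 108, had intervals that overlapped from one to the next. The order in the middle depends on the length used: with all annotated exons joined, Ctss came after Ctsd and before Ctsz in both libraries, and Ctsh, Ctsc and Ctsl, whose joined exons are far longer, moved down. Ctsd was highest with either length, and with joined exons Ctse was lowest in both libraries.

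Ctsd and Ctse form the aspartic pair. Ctsd (ENSMUSG00000007891, chromosome 7, 142375911 to 142388038, minus strand), the main aspartic protease of lysosomes, had 49200 and 45331 counts, or 849 and 729 CPM, and a ratio of 0.859 (0.848 to 0.870). Its exons share 808 bases with the gene model Gm49369 on the same strand. That model is absent from the counted identifiers, so no reads were assigned to it. Ctse (ENSMUSG00000004552, chromosome 1, 131638306 to 131675505, plus strand) encodes an enzyme of endosomes rather than lysosomes, known from gastric mucosa, antigen-presenting cells and the membrane of red blood cells. Its level was 38.2 CPM (36.6 to 39.8) in control lung and 3.44 CPM (2.99 to 3.93) with PM2.5, an 11.1-fold lower value (9.65 to 12.8). Of the 14518 genes, 21 had a lower ratio, and of the 10421 averaging 10 CPM or more, 5 did. It was 9.47-fold lower with library totals and 11.35-fold lower with the trend over joined exon length removed, the ends of the range over all settings tried. For each Ctse count there were 22.2 Ctsd counts in control lung and 212 with PM2.5.

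The genes around Ctse were higher or nearly without counts. Rab7b, a small GTPase gene that lies 13190 bases downstream on the same strand, had 284 and 1051 counts and was 3.45-fold higher (3.02 to 3.95). Avpr1b, 26306 bases away on the other side, had 1 count in control lung and none with PM2.5. No annotated exon of another gene overlaps those of Ctse, and none of its transcripts matched another gene over 250 bases or more at 90% identity or above.

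Markers of cell types that can carry cathepsin E moved in different directions. Among the 7 erythroid genes found of 8 listed, 6 were lower and 1 higher, with a summed level of 5832 CPM in control lung and 2707 with PM2.5. None of the 7 was at 0 in either library. The anion exchanger gene Slc4a1, with 952 and 67 counts, had a ratio of 0.0656 (0.0504 to 0.0841), and Alas2, for the first enzyme of haem synthesis in red cells, had 0.379. Hba-a1 was 3.79-fold lower and Hba-a2 3.14-fold higher, but these copies are near-identical and their separate values are uncertain. B cell markers went the other way, with 8 of 10 higher, none lower and a summed level of 302 and 508 CPM. Dendritic cell markers had 3 higher and 1 lower of 10, with sums of 188 and 181 CPM. No marker on these lists was at 0. The part of any of these cells in the Ctse value was not tested, and in tissue RNA fewer cells of a type and less RNA per cell cannot be told apart.

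Ctsb and Ctsl are the broadly expressed cysteine proteases of the family. Ctsb (ENSMUSG00000021939, chromosome 14, 63122462 to 63145923, plus strand), which also trims peptides from their carboxyl end, had 33435 and 31758 counts and a ratio of 0.885 (0.872 to 0.899). Ctsl (ENSMUSG00000021477, chromosome 13, 64359337 to 64370890, minus strand), a strong endopeptidase of lysosomes, had 17532 and 13465 counts, 302 and 216 CPM, a ratio of 0.716 (0.700 to 0.732). With TMM that is the lowest of the 9 genes other than Ctse, and 24.8% of all tested genes had a lower one. With library totals it was 0.840. With the trend over joined exon length removed it was 0.785. Ctsz at 0.650, Ctsk at 0.728, Ctss at 0.746 and Ctsd at 0.778 then lay below it. Both genes overlap exons of others on the opposite strand, Ctsb those of Fdft1 over 774 bases and Ctsl those of Gm47123 over 1742 bases. Ctsl also shares 395 bases with the pseudogene Gm49230. Fdft1 had 2697 and 3697 counts, and neither Gm gene is among the counted identifiers, so no reads were assigned to them. The strand setting of the counting is not given in the sources used here. Reads from the stretch shared by Ctsb and Fdft1 may therefore have been assigned to either gene or dropped.

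Ctss and Ctsk had the ratios nearest to 1 with TMM scaling. Ctss (ENSMUSG00000038642, chromosome 3, 95526786 to 95556403, plus strand), which cleaves the invariant chain Cd74 on MHC class II molecules and works at neutral pH, had 12791 and 12983 counts and a ratio of 0.946 (0.923 to 0.970). Ctsk (ENSMUSG00000028111, chromosome 3, 95499256 to 95509362, plus strand), the collagen- and elastin-degrading protease of osteoclasts, had 1520 and 1471 counts and a ratio of 0.902 (0.839 to 0.970). There were 8.42 Ctss counts for each Ctsk count in control lung and 8.83 with PM2.5. The gene before them, Arnt, had a ratio of 0.719, and Golph3l, 32531 bases after Ctss, had 0.946.

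The partners of Ctss in antigen presentation were not all alike. Among 9 of them, 3 passed the rule upward and 0 downward, and the median log2 ratio was 0.27. With the length trend removed, 1 passed in each direction. The MHC class II chain H2-Aa had 27648 and 54271 counts and was 1.83-fold higher (1.80 to 1.86), and the peptide exchange genes H2-DMb1 and H2-DMb2 were 1.69-fold and 1.56-fold higher. Cd74, the substrate of Ctss, had a ratio of 0.880, and the thiol reductase gene Ifi30 had 0.705. There were 0.463 Ctss counts for each H2-Aa count in control lung and 0.239 with PM2.5. Genes that accompany Ctsk in osteoclasts were measured in 8 of 11 cases, with 4 lower and 1 higher. Nfatc1, the transcription factor of osteoclast formation, had a ratio of 0.557 (0.530 to 0.585), the tartrate-resistant phosphatase gene Acp5 had 1.07 (0.998 to 1.15), and Mmp9, which neutrophils also express, was 1.80-fold higher.

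Ctsh (ENSMUSG00000032359, chromosome 9, 90054152 to 90076089, plus strand), an aminopeptidase that takes part in the processing of surfactant protein B in alveolar type 2 cells, had 21221 and 19736 counts and a ratio of 0.867 (0.850 to 0.884). Napsa, an aspartic protease gene of the same cells and pathway, had 14450 and 15208 counts and a ratio of 0.981 (0.959 to 1.004). Their substrate Sftpb had 176734 and 136831 counts and a ratio of 0.722. For each Sftpb count there were 0.120 Ctsh counts in control lung and 0.144 with PM2.5. Of 12 type 2 cell markers, 3 were lower and 1, Lyz2, was higher at 1.52-fold, with a median log2 ratio of -0.06. Library totals gave 1 lower, 2 higher and a median of 0.17, and removal of the length trend 4 lower, 0 higher and -0.20. Ctsh transcripts match the pseudogene Gm5398 over 354 bases at 91.0% identity, so some reads could be shared.

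Ctsz and Ctsc are exopeptidases. Ctsz (ENSMUSG00000016256, chromosome 2, 174427493 to 174439039, minus strand), a carboxypeptidase also called cathepsin X, had 9129 and 7970 counts and a ratio of 0.814 (0.790 to 0.839). Its exons share 10 bases with Nelfcd on the opposite strand. With the trend over joined exon length removed, its ratio was 0.650. It was then the one gene besides Ctse that met the 1.5-fold rule, a count not tried with transcript lengths. Ctsc (ENSMUSG00000030560, chromosome 7, 88278085 to 88310888, plus strand), dipeptidyl peptidase I, which activates the serine proteases of granules, had 18565 and 16975 counts and a ratio of 0.852 (0.835 to 0.870). Its substrates were higher where they could be measured. Of 8 substrate genes, 4 had a mean of at least 1 CPM, all 4 were counted as higher, and 2 of these, the mast cell proteases Cma1 and Mcpt4, were below 1 CPM in the control library. The granzyme genes Gzma and Gzmb, from cytotoxic lymphocytes, had 860 and 2688, and 123 and 457 counts, and were 2.91-fold (2.70 to 3.15) and 3.46-fold (2.83 to 4.26) higher. The summed level of the 8 substrates was 18.7 CPM in control lung and 59.1 with PM2.5, beside 320 and 273 CPM of Ctsc itself. Over all 8, with genes at 0 set to the floor of 3 counts, the median log2 ratio was 1.67. The floor put Ctsg, with 0 and 2 counts, on the lower side, so this median rests in part on the floor. Markers of the cells that make these substrates were measured beside them. Among T and NK cell markers 5 of 10 were higher and none lower, with sums of 79.5 and 110 CPM. Of 8 mast cell markers 4 could be measured, 3 of them higher and 1 lower, with sums over the 8 of 247 and 137 CPM. Among the 3 higher are Cma1 and Mcpt4 again, the same 2 genes below 1 CPM in the control library. On those genes the marker list repeats the substrate list. Kit, the receptor gene that other lung cells also express, was the lower one and made up most of both sums, at 243 and 122 CPM. The other 7 had more counts with PM2.5, among them Cpa3 with 166 and 358 and Tpsb2 with 1 and 103. The part of these cells in the substrate values was not tested.

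Ctsa (ENSMUSG00000017760, chromosome 2, 164832873 to 164841032, plus strand) encodes the carboxypeptidase that also shields the lysosomal sialidase Neu1 and beta-galactosidase Glb1 in a complex. It had 11369 and 9954 counts and a ratio of 0.816 (0.794 to 0.838). Neu1, with 2301 and 2457 counts, had a ratio of 0.995 (0.940 to 1.05), whereas Glb1, with 2295 and 1452, had 0.590 (0.552 to 0.630). For each Glb1 count there were 4.95 Ctsa counts in control lung and 6.86 with PM2.5, and for each Neu1 count 4.94 and 4.05. Exons of Ctsa overlap those of Pltp and Neurl2 on the opposite strand over 495 and 324 bases. Pltp had 22653 and 12413 counts and a ratio of 0.511, and Neurl2 86 and 234 counts, so the Ctsa value is less certain than its counting interval shows.

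**Figure D3:**
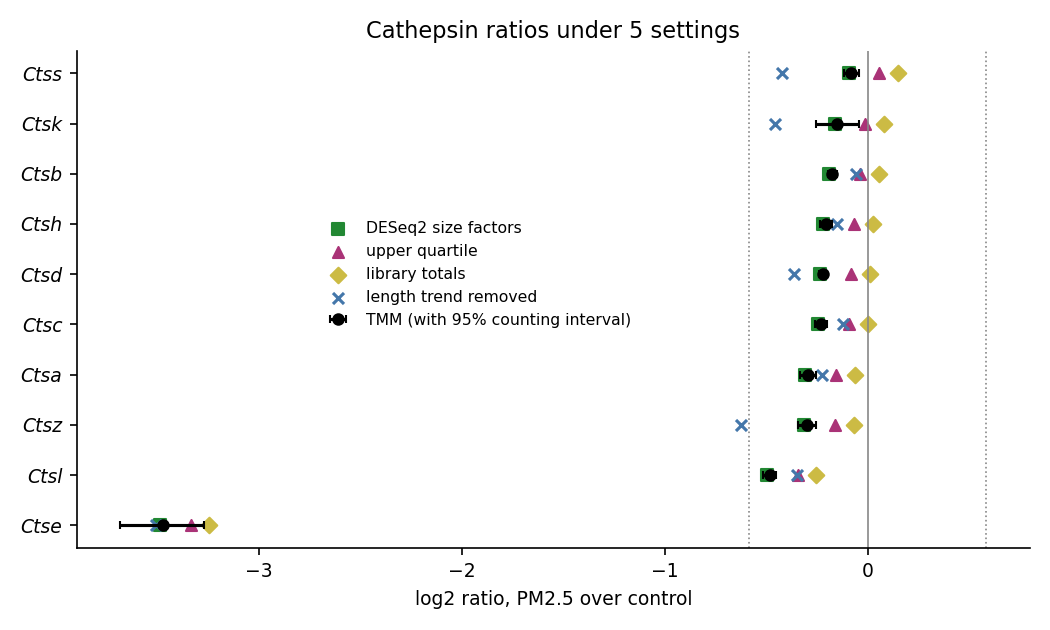
Log2 ratio of each cathepsin, PM2.5 over control, with TMM scaling and its 95% counting interval. Values without intervals are for 3 other scalings and for removal of the trend over joined exon length. Dotted lines mark 1.5-fold in either direction. Ctse lies beyond -3 under each, 5 of the other 9 genes lie above 0 with library totals, and among those 9 only Ctsz, with the length trend removed, passes a dotted line.

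The remaining cathepsins were few in lung. Of 14 further family members and relatives, 4 had a mean of at least 1 CPM, and the placental cathepsins of the list had from 0 to 3 counts, among them Cts8 with 1 and 3 and Ctsq with 0 and 1. Ctsg, the neutrophil and mast cell serine protease cathepsin G, had 0 counts in control lung and 2 with PM2.5, under the floor of 3 counts in both. Ctsw, for a cathepsin of cytotoxic lymphocytes, had 341 and 564 counts and was the 1 gene counted as higher, at 1.54-fold (1.34 to 1.77), a call that ended with the length trend removed. Ctsf had 1930 and 1413 counts and a ratio of 0.682 (0.637 to 0.731), and Ctso 4328 and 4855 counts and 1.05.

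The list of inhibitors holds cystatin-family genes and other inhibitors of cysteine proteases. Of 18 listed genes, 8 had a mean of at least 1 CPM. With TMM, 4 of them counted as higher and 0 as lower, and the median log2 ratio was 0.61. Library totals and the upper quartile each gave 6 higher, and removal of the length trend 2. Cst3, the secreted inhibitor cystatin C, had 30263 and 50705 counts and was 1.56-fold higher (1.54 to 1.58). Cstb, an inhibitor inside cells, had 2158 and 3166 counts and a ratio of 1.37 (1.29 to 1.44). Cst7, a cystatin of immune cells, was 1.81-fold higher on 72 and 140 counts. Fetub, 2.002-fold higher on 162 and 348 counts, is of the cystatin family but is known as an inhibitor of metalloproteinases, so 1 of the 4 higher genes is not a cathepsin inhibitor by its known role. Stfa2l1, for a stefin of neutrophils, was 2.76-fold higher on 192 and 568 counts. It has close copies, of which Stfa1 had 36 and 49 counts, Stfa2 0 and 7, Stfa3 1 and 6, Csta1 0 and 1, and BC100530 12 and 12, so these values are uncertain. Ctla2a and Ctla2b, which resemble the propeptide of cysteine cathepsins and each other, had ratios of 0.908 and 1.499, the latter just under 1.5, and Serpina3g had 1.06. Among genes below 1 CPM, Ahsg had 22 and 88 counts, Kng2 4 and 41, Cst6 3 and 9, and Kng1 2 and 0. The 7 cysteine cathepsins together had 3.77 counts for each Cst3 count in control lung and 2.06 with PM2.5, a comparison that needs no scaling.

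Genes for the sorting and activation of lysosomal proteins were lower in part. Library totals gave 5 lower and 1 higher of 15, and removal of the length trend 8 lower and 1 higher. With TMM, 6 of the 15 genes were lower and none higher, and the median log2 ratio was -0.49. The 6 were the protease gene Furin at 2.16-fold, the progranulin gene Grn at 2.13-fold, the mannose 6-phosphate receptor Igf2r at 2.05-fold, sortilin, Sort1, at 1.90-fold, Scarb2 at 1.77-fold and prosaposin, Psap, at 1.72-fold. The other mannose 6-phosphate receptor, M6pr, had 11817 and 11538 counts and a ratio of 0.910, and Lgmn, a protease that processes cathepsin precursors, had 0.688. Lgmn is counted again among the hydrolases below, and Scarb2 among the lysosomal membrane proteins. Psap, which binds the precursor of Ctsd, had 58831 and 36680 counts, so that there were 0.836 Ctsd counts for each Psap count in control lung and 1.24 with PM2.5. Of the transcription factors, Tfeb and Tfe3 had ratios of 0.675 (0.634 to 0.719) and 0.682 (0.647 to 0.719), and Mitf and Tfec 0.808 and 1.13. None of these 4 met the 1.5-fold rule.

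Other lysosomal genes differed by class. Of 33 further hydrolases and related lumenal proteins, 12 were lower and 2 higher, with a median log2 ratio of -0.44. Library totals left 2 lower and 2 higher and a median of -0.21. The lower genes included the glucosidase Gaa, with 7507 and 4028 counts, and the sulfatase Sgsh, with a ratio of 0.501 (0.465 to 0.539), and the higher ones were acid ceramidase, Asah1, at 1.86-fold (1.81 to 1.92) and Dpp7 at 1.77-fold. The 16 lysosomal membrane proteins had 4 lower and 1 higher, with a median of -0.17 that turns to 0.06 with library totals. The abundant Lamp1 had 61539 and 48904 counts and a ratio of 0.741. Of 18 subunits of the proton pump that acidifies lysosomes, 17 met neither size, and Tcirg1, the subunit known from osteoclasts, was 2.07-fold higher (1.97 to 2.17). With library totals 4 subunits were higher. The median of this list was 0.01, and -0.00 with DESeq2 size factors, so the cathepsin median of -0.23 lay between those of the pump and the hydrolases.

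**Figure D4:**
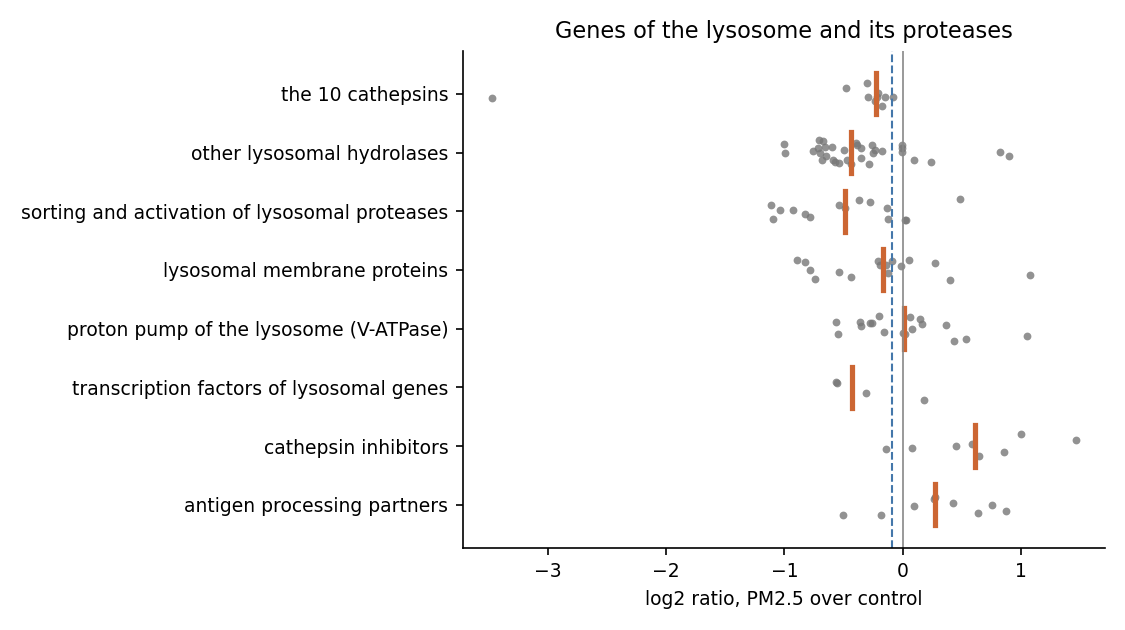
Log2 ratio, PM2.5 over control, of the genes averaging 1 CPM or more in each list (grey points, spread vertically for sight only), with the list median as an orange bar and the median of all tested genes, -0.09, as a dashed line. The hydrolase and sorting lists have medians of -0.44 and -0.49, the 10 cathepsins -0.23 with Ctse far to the left, and the inhibitors 0.61.

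Markers of macrophages and of other cell types were measured beside these values. Of 20 macrophage markers, 6 were higher and 4 lower, with a summed level of 1158 CPM in control lung and 1166 with PM2.5. None was at 0. Library totals gave 8 higher and 1 lower. The pan-macrophage genes Cd68, Csf1r and Adgre1 had ratios of 0.867, 0.885 and 1.015, while Marco was 3.57-fold higher and Gpnmb 2.21-fold lower. Of 10 monocyte markers, 4 were higher and 1 lower, with sums of 286 and 355 CPM. Of 16 neutrophil markers, 13 were higher, 1 of them (Ly6g) from below 1 CPM in control lung. The granule genes Ngp and Camp were the 2 lower, with ratios of 0.298 and 0.358. The sums over the 16 were 783 and 2099 CPM. All 9 adipocyte markers were higher, 2 of them from below 1 CPM in control lung, with sums of 132 and 789 CPM. Of 9 endothelial markers 8 were lower and none higher, with sums of 7499 and 3200 CPM. Club and secretory airway markers had 7 higher and 1 lower of 10, or 4 and 0 with the length trend removed. Their summed level was 21896 CPM in control lung and 34821 with PM2.5. Of 8 alveolar type 1 markers 3 were lower (1 with library totals) and none higher. Fibroblast markers had 4 higher and 4 lower of 9, with sums of 4903 and 4119 CPM. The part of these cells in the level of any cathepsin was not tested.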

How the data were processed

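Lung RNA of 1 control and 1 PM2.5 library was analysed, grouped by the exposure in the labels. Per the labels' protocols, polyadenylated RNA was made into stranded libraries and read in pairs of 125 bp. Tools named in the submitters' processing notes are TopHat2 2.1.1 and HTSeq 0.6.0, with the build mm10. Which annotation release and strand setting were used is not given in the sources used here. Raw counts are what the deposited files hold, one value per Ensembl gene, without normalization. Symbols, coordinates and lengths came from GENCODE M21 (GRCm38), which named 35533 of 37315 identifiers.

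Library sizes were scaled by TMM (edgeR 4.0.16; factors 0.923 and 1.08), and CPM and ratios with exact Clopper-Pearson intervals were computed for every gene. Reads are not independent molecules, so intervals cover counting error only. For list medians without the filter, and only there, a gene at 0 was set to a floor of 3 counts. That is 0.0517 CPM (control) or 0.0482 CPM (PM2.5). The 10 genes and all lists were chosen with earlier results of these data known. Named genes were all 10 cathepsins, every detected other cathepsin, inhibitor and lysosomal transcription factor, neighbours in the annotation, and from other lists the most abundant or most different members; a few others that show a partner or marker of a cathepsin were chosen after their values were seen. Shared sequence was sought with BLAST over transcripts. The interval and size rule were run on simulated counts with counting noise only and with the library sizes given. That run checks neither the scaling nor variation between libraries. Alternatives were library totals, size factors of DESeq2 1.42.0, the upper quartile, TMM without the 100 most abundant genes, and thinning. Further ones were a lowess correction for the joined length of all annotated exons, and other filters and size rules. R 4.3.3 and Python 3.11.15, with statsmodels 0.14.6 and scipy 1.17.1, ran the computations.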

Additional observations from a re-analysis of the deposited data

How the results depend on the processing

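Under every scaling, thinning, filter and size rule tried, none of the 10 cathepsins was counted as higher, and Ctse was counted as lower, with a ratio from 0.0881 (length trend removed) to 0.106 (library totals). The count of lower genes was 1 throughout except with the length trend removed, where it was 2. The median log2 ratio of the 10 genes, -0.23 with TMM, was 0.0049 with library totals, -0.087 with the upper quartile and -0.36 with the length trend removed. The ratio of their summed CPM, 0.842 with TMM, was 0.834 with DESeq2 size factors, 0.987 with library totals, 0.926 with the upper quartile and 0.835 without Ctsd. Of 60 alternative values for single cathepsins, 28 moved outside the counting interval of the TMM value. A change of scaling multiplies all genes by 1 factor. Counts per kilobase moved 18 of 20 shares, and dropping the filter left the median of each of the 24 other lists within the counting intervals of its middle genes. With 1 library per group no library could be left out. Library totals changed several counts of other lists by more than 1.5 times: 2 hydrolases were lower instead of 12, 2 membrane proteins lower and 2 higher instead of 4 and 1, 4 pump subunits higher instead of 1, 2 osteoclast-type genes lower instead of 4, 1 macrophage marker lower instead of 4, and 1 type 2 cell marker lower and 2 higher instead of 3 and 1. With the length trend removed, 2 inhibitors were higher instead of 4, 1 antigen presentation gene higher and 1 lower instead of 3 and 0, no type 2 cell marker higher instead of 1, and no other cathepsin instead of 1 (Ctsw). With the upper quartile, 3 hydrolases were lower. No paired analysis was possible because each group has 1 library.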
